A study of Homo sapiens with 15 samples.

Results

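Transcripts of 10 genes of the TGF-beta pathway were followed in the established breast adenocarcinoma line MDA-MB-231 after knockdown of YAP, TAZ or both. The genes were taken by symbol from the deposited count table and all 10 were found among its 18858 genes. They comprise the ligand genes TGFB1, TGFB2 and INHBA, the receptor genes TGFBR1 and TGFBR2, the signal-carrying SMAD2 and SMAD3, the inhibitory SMAD6 and SMAD7, and TGFBI. INHBA encodes the beta A subunit of inhibin and activin, and TGFBI encodes a secreted matrix protein named for its induction by TGF-beta, so that these 2 genes stand at the edge of the pathway's core.

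The series held 15 libraries in 5 groups of 3. Control cells were untransfected, siControl cells received control siRNA, and siYAP and siTAZ cells received a SMARTpool, a mixture of several siRNAs against a single gene. The siYAP+TAZ cells received siRNA against both genes. The genotype was given as WT for Control and siControl and as the knockdown for the other 3 groups. Transfected cells were left for 48 h, then seeded on gelatin for 5 to 6 h and scraped for RNA, with the aim of comparing the transcriptomes of the knockdowns. Because each target was hit with a pool, the contribution of a single siRNA cannot be told apart, and although the sequencing is described as covering 3 independent experiments, which libraries belong to the same experiment is not given in the sources used here. Libraries are named here by the number in their sample names. Control comprises 16, 21 and 26. The siControl libraries are 17, 22 and 27, the siYAP libraries 18, 23 and 28, the siTAZ libraries 19, 24 and 29, and the libraries of siYAP+TAZ 20, 25 and 30. Values for a group are given in that order.

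TGF-beta and activin ligands are secreted dimers, and TGF-beta itself is stored in the matrix in a latent form. The active ligand binds a type II receptor such as TGFBR2, which recruits and phosphorylates the type I receptor TGFBR1, and TGFBR1 phosphorylates SMAD2 and SMAD3, which move to the nucleus with SMAD4. SMAD6 and SMAD7 block this relay, and SMAD7 is itself induced by the pathway as a negative feedback. YAP and TAZ are transcriptional coactivators held back by the Hippo pathway and act mainly through TEAD factors, and TGF-beta signalling in breast cancer cells is known for promoting invasion and matrix production.

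Total counts were 18696737 to 30107312 per library (median 22902846), and all 10 genes passed the minimum of 5 reads in at least 1 library. Levels are given as normalised read counts, that is counts scaled by TMM to a common library size, unless a level per kilobase is named. YAP1, which encodes YAP, had normalised read counts of 4431, 4333 and 4202 in siControl, 1013, 2764 and 761 in siYAP and 2240.2, 2202 and 1796 in siYAP+TAZ. WWTR1, which encodes TAZ, had 1995, 1850.2 and 1579 in siControl, 828, 254 and 521 in siTAZ and 1133, 1123 and 1284 in siYAP+TAZ. Every targeted library lay below all siControl libraries, but depletion was uneven: library 23 kept the most YAP1 of the siYAP libraries, library 24 kept the least WWTR1 of all, and WWTR1 was higher in every siYAP+TAZ library than in any siTAZ library. The fall was past the adjusted threshold for WWTR1 in siTAZ (log2 fold change -1.74, SE 0.31, adjusted p = 0.0187), while the remaining 3 comparisons of a targeted gene with siControl had adjusted p from 0.0723 to 0.199. Of 5 luminal or epithelial genes listed as low in this mesenchymal, estrogen receptor-negative line, ESR1 and CDH1 were not in the count table, PGR had at most 7 reads in a library and ERBB3 26 to 64, but GATA3 had 379 to 697. All 5 high markers of the line were present, without a called change against siControl. Of the markers of other cells, 3 of 5 fibroblast genes were in the table, with DCN and PDGFRA absent, and their summed level was 13.2 to 23.0 CPM (counts scaled to the library total) in siControl, 20.2 to 22.6 in siYAP, 20.8 to 35.2 in siTAZ and 27.6 to 33.6 in siYAP+TAZ, where PDGFRB alone of the 3 was called. PDGFRB had mean normalised read counts of 64.9 in siControl, 108 in siYAP, 118 in siTAZ and 194 in siYAP+TAZ. The 3 leukocyte genes in the table (CD3E was absent) summed to at most 2.10 CPM in any library, with CD14 higher in siYAP+TAZ, and the 2 endothelial genes to at most 9.25. The part of these markers in the results was not tested.

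**Figure D1:**
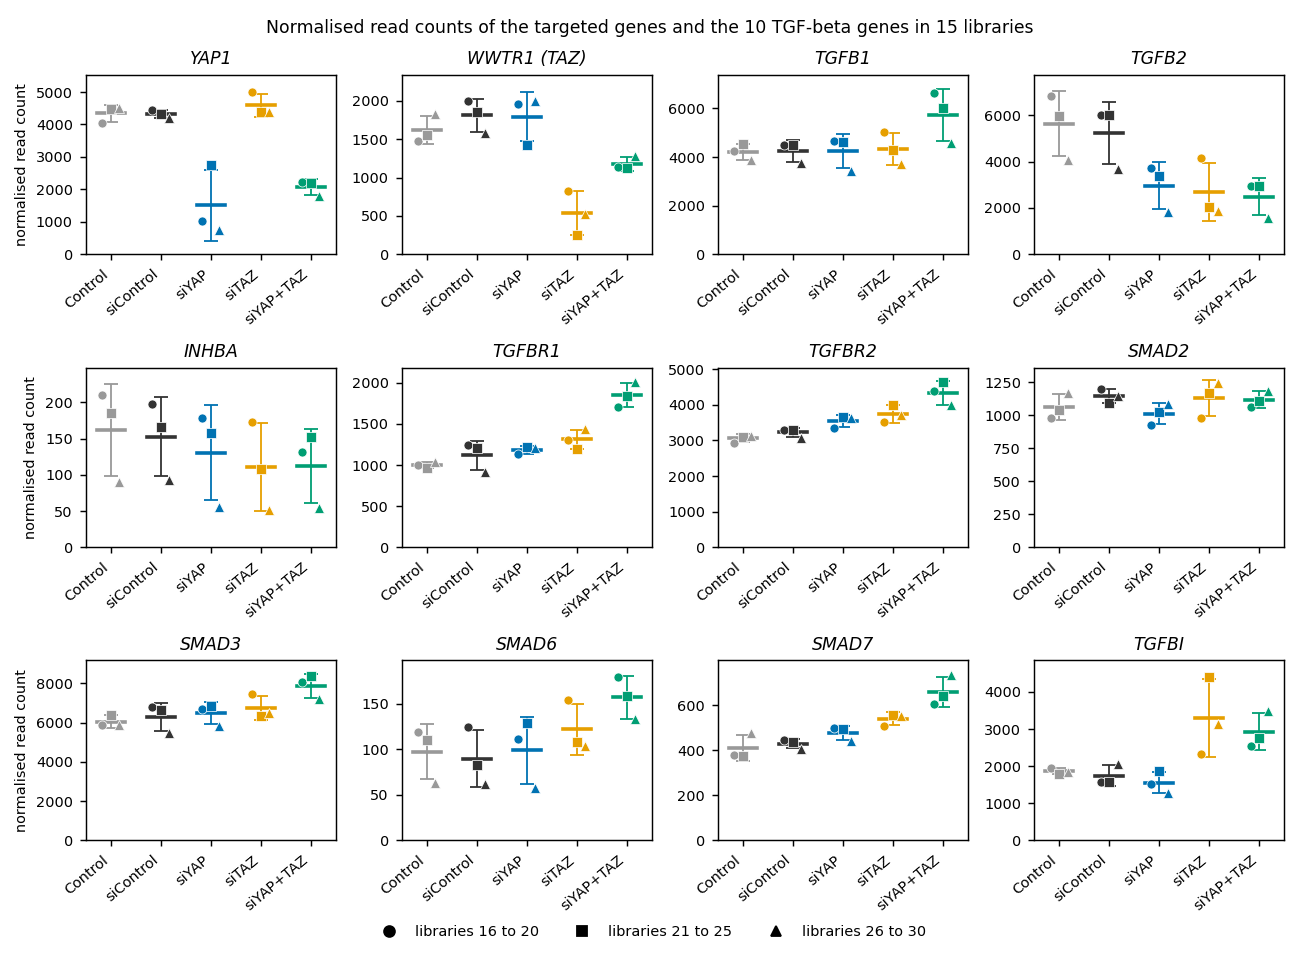
Normalised read counts (y axes, linear from 0) of YAP1, WWTR1 and the 10 TGF-beta genes in the 5 groups (x axes), with 1 point per library, bars at the mean and error bars of 1 SD (n = 3). Marker shape gives the run of library numbers. TGFBR1, TGFBR2 and SMAD7 lie highest in siYAP+TAZ, TGFB2 lies lower in all 3 knockdowns than in siControl on average, and the triangles of TGFB1, TGFB2, INHBA and SMAD6 (libraries 26 to 30) lie lowest in every group.

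After co-knockdown of YAP and TAZ, 5 of the 10 genes rose against siControl and none fell at an adjusted p of at most 0.05: TGFBR1, TGFBR2, SMAD3, SMAD7 and TGFBI. Of all genes tested, 18.4% passed in either direction and 9.97% rose. Both receptors, one of the signal-carrying SMADs, the feedback inhibitor SMAD7 and the matrix target were thus among the genes that rose, by 1.25 to 1.69-fold, and by edgeR no member passed an absolute log2 fold change of 1 as well, which 3.46% of all genes did. The median log2 fold change of the 10 genes was 0.43, beside a median of -0.0048 over all genes. The groups did not overlap for 8 of the 10 genes, 7 of them higher and TGFB2 lower, where 36.4% of all genes were without overlap. With library size as the only scaling 5 members passed too, beside 3346 of 18858 genes, and the share of calls that were higher was 64.3% of all calls, against 54.3% with TMM. In libraries 16 to 25 alone, an alternative chosen after seeing that several members were lower in libraries 26 to 30, 6 members passed, with TGFB1 and SMAD6 gained and TGFBI lost (adjusted p = 0.166), beside 3758 of 18858 genes. The DESeq2 test passed 8 members, adding TGFB1, SMAD6 and TGFB2, beside 3656 of 18858 genes. TGFB2 passed the fold threshold there too (log2 fold change -1.07, adjusted p = 0.0390). These are bulk libraries, in which a change in every cell and a change in the share of cells that hold a transcript cannot be told apart.

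**Figure D2:**
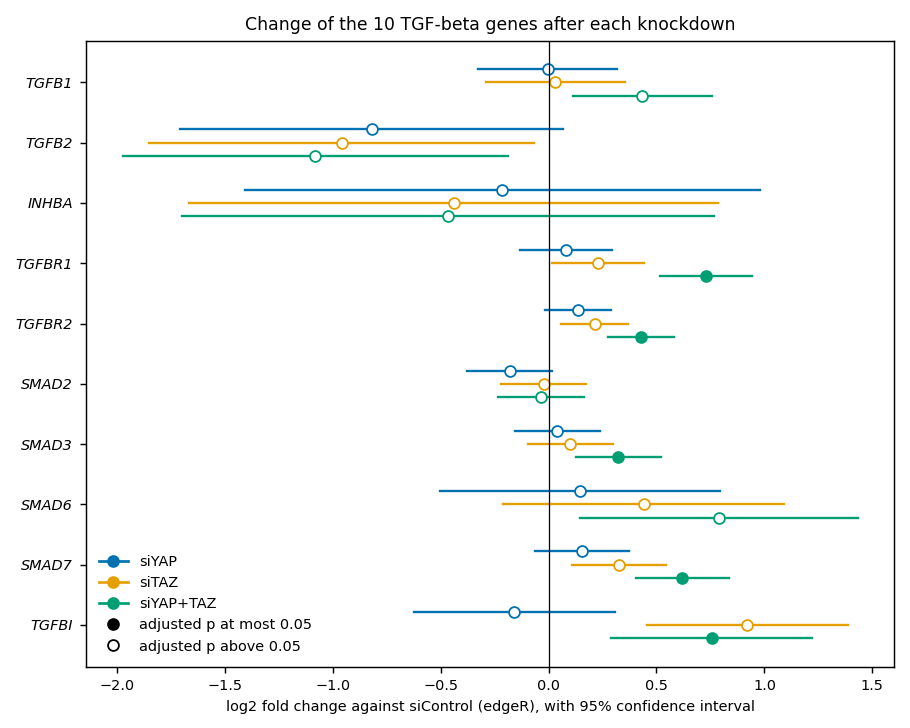
Log2 fold change against siControl (x axis) of each of the 10 genes (rows) in siYAP, siTAZ and siYAP+TAZ, with 95% confidence intervals from the edgeR fit. Filled points passed an adjusted p of 0.05. They are TGFBR1, TGFBR2, SMAD3, SMAD7 and TGFBI in siYAP+TAZ, and no point of siYAP or siTAZ is filled.

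Gene positions are those of GENCODE on GRCh38. Among the ligands, TGFB2 (chr1:218345336-218444619, plus strand), one of the 3 TGF-beta isoforms, had the largest fitted difference of the 10 genes in the co-knockdown, and it was a lower level. Normalised read counts of TGFB2 were 6821, 5984 and 4086 in Control, 5999.6, 6022 and 3681 in siControl and 2935, 2945 and 1564 in siYAP+TAZ. Every siYAP+TAZ library lay below every siControl library, and in each group the library from 26 to 30 was the lowest. The log2 fold change in siYAP+TAZ was -1.08 (SE 0.40, 95% interval -1.97 to -0.19), a 2.11-fold lower level, and it did not pass the adjustment (adjusted p = 0.095, edgeR), though it did with DESeq2 (adjusted p = 0.0390).

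The means of the single knockdowns lay between those of siControl and siYAP+TAZ, with normalised read counts of TGFB2 of 3727, 3359 and 1808 in siYAP and 4132, 2060.3 and 1873 in siTAZ. Both groups overlapped with siControl, because siControl library 27 (3681) was below siYAP library 18 and siTAZ library 19. Its log2 fold change was -0.82 in siYAP (SE 0.40, adjusted p = 0.466) and -0.96 in siTAZ (SE 0.40, adjusted p = 0.273). The libraries were also compared within each run of library numbers (16 to 20, 21 to 25 and 26 to 30), which holds each group once. The ratio of siYAP+TAZ to siControl was 0.489, 0.489 and 0.425 in the 3 runs, that of siYAP 0.621, 0.558 and 0.491, and that of siTAZ 0.689, 0.342 and 0.509. All 9 knockdown libraries were thus below the siControl library of their own run, and the lowest ratio belonged to siTAZ library 24, the library with the least WWTR1. Libraries 26 to 30 had 51 to 63.8% of the mean of the other libraries of their group. The part of the runs was examined only by values without libraries 26 to 30 and by a fit with a block for the run. That fit, given in the closing paragraph, called TGFB2 lower in all 3 knockdowns, though no source pairs the libraries by run.

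The exons of TGFB2 share 11.6% of their bases with the antisense gene TGFB2-AS1 and 22.7% with TGFB2-OT1, a transcript of the same strand that is not in the count table. Whether counting used the strand is not given in the sources used here, so reads of TGFB2 and TGFB2-AS1 could not be told apart without it. TGFB2-AS1 had normalised read counts of 3.4, 12.9 and 10.7 in siControl and 1.19, 2.15 and 0.918 in siYAP+TAZ, at most 15 reads in a library. Exons of other genes on the opposite strand covered 6.59% of TGFB1 (HNRNPUL1), 2.99% of INHBA (INHBA-AS1) and 1.82% of SMAD3, and none of the other 6 members.

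The promoter of TGFB2 is shown because TGFB2 was the member that lay lower in the co-knockdown without overlap and because its window holds the letters GGAATG, the core bound by TEAD factors, on the minus strand. The sequence is the 250 bases before the start site from RefSeq (GRCh38.p14, chr1:218345086-218345335, plus strand), with the capitals marking the letters as they read on the plus strand, starting 185 bases before the start site.
TGFB2: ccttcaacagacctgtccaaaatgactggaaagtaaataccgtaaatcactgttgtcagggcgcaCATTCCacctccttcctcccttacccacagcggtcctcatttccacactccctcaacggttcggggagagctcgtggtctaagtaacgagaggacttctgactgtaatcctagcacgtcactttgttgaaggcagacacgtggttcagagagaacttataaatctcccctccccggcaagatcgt
GGAATG was searched on both strands in windows from 250 bases before to 50 bases after each RefSeq start site and stood in 14% of 35116 windows. The 10 genes had 25 windows among them, of which 2 (8%) held it, 1 each of TGFB2 and TGFBR1. By gene these are 2 of 10, beside 16.7% of all 27305 genes with a window. A match is a description of the letters only.

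TGFB1 (chr19:41301587-41353922, minus strand), the most studied isoform, had normalised read counts of 4253, 4517 and 3876 in Control, 4503, 4498 and 3739 in siControl, 4654, 4625 and 3429 in siYAP, 5023, 4292 and 3704 in siTAZ and 6635, 6018 and 4559 in siYAP+TAZ. The siYAP+TAZ libraries lay above all siControl libraries, by a narrow margin for library 30, while both single knockdowns overlapped with siControl. The log2 fold change in siYAP+TAZ was 0.43 (SE 0.15, adjusted p = 0.0598), a 1.35-fold higher level just outside the threshold, with a ratio of 1.47, 1.34 and 1.22 within the 3 runs. Without library 30 the gene passed (log2 fold change 0.58, adjusted p = 0.00871). The values of -0.00317 in siYAP (95% interval -0.32 to 0.32) and 0.03 in siTAZ (-0.29 to 0.35) were near 0. TGFB1 and TGFB2 therefore lay on opposite sides of siControl in the co-knockdown, TGFB1 higher and TGFB2 lower in each of the 3 runs.

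INHBA (chr7:41667168-41705834, minus strand), the activin subunit gene, was a low transcript that varied more between libraries than between groups. Normalised read counts were 198, 166 and 92.3 in siControl, 179, 157 and 55.5 in siYAP, 172, 108 and 51.4 in siTAZ and 131, 151 and 54.1 in siYAP+TAZ. Libraries 26 to 30 held 33 to 50.6% of the mean of the other libraries of their group, and every knockdown group overlapped with siControl. For siYAP+TAZ the log2 fold change was -0.47 with a 95% interval of -1.70 to 0.76 (adjusted p = 0.637). Within the runs all 9 knockdown libraries lay below their siControl library, with ratios of 0.66, 0.91 and 0.587 for siYAP+TAZ. With a block for the run, as given in the closing paragraph, INHBA was called lower in siYAP+TAZ and siTAZ but not in siYAP.

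TGFBR1 (chr9:99104038-99154192, plus strand), the type I receptor, gave the smallest adjusted p of the 10 genes in the co-knockdown. Its normalised read counts were 1006, 963 and 1036 in Control, 1240.1, 1201 and 911 in siControl, 1128, 1221 and 1202 in siYAP, 1305, 1192 and 1433 in siTAZ and 1709.9, 1838 and 2006 in siYAP+TAZ. All 3 siYAP+TAZ libraries lay above all 12 other libraries. The gene rose 1.66-fold in siYAP+TAZ (log2 fold change 0.73, SE 0.10, adjusted p = 7.06e-05), and the call held on leaving out any one of the 6 libraries compared (log2 fold change 0.60 to 0.82). The ratio within the runs was 1.38, 1.53 and 2.2, largest in the run whose siControl library was lowest. In the single knockdowns the log2 fold change of TGFBR1 was 0.08 in siYAP (SE 0.10, adjusted p = 0.839) and 0.23 in siTAZ (SE 0.10, adjusted p = 0.275).

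TGFBR2 (chr3:30606601-30694142, plus strand), the type II receptor that binds the ligand first, had normalised read counts of 3304, 3294 and 3082 in siControl, 3343, 3652 and 3639 in siYAP, 3513, 4006 and 3708 in siTAZ and 4390.1, 4649 and 3987 in siYAP+TAZ. None of the 3 knockdown groups overlapped with siControl, and all 9 knockdown libraries lay higher. In siYAP+TAZ the gene rose 1.35-fold (log2 fold change 0.43, SE 0.07, adjusted p = 4.76e-04), which held with each library left out in turn. The differences in siYAP (0.14, SE 0.07, adjusted p = 0.501) and siTAZ (0.21, SE 0.07, adjusted p = 0.141) did not pass.

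The start of TGFBR2 is shown for the letters TGANTCA, the site of AP-1, a factor that is known to bind near TEAD sites. They lie on the plus strand across the annotated start, from 6 bases before it (RefSeq, GRCh38.p14, chr3:30606583-30606612, plus strand).
TGFBR2: gttgaagttgagTGAGTCActcgcgcgcac
TGANTCA stood in 7.71% of all windows on either strand and in 2 of the 25 windows of the 10 genes (8%), 1 each of TGFBR2 and SMAD3. By gene these are 2 of 10, beside 9.37% of all genes.

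SMAD2 (chr18:47808957-47931146, minus strand) and SMAD3 (chr15:67063763-67195173, plus strand) are the substrates of TGFBR1. Normalised read counts of SMAD3 were 6774, 6643 and 5462 in siControl, 6711, 6869 and 5831 in siYAP, 7451, 6311 and 6489.9 in siTAZ and 8069, 8376 and 7193 in siYAP+TAZ. The siYAP+TAZ libraries lay above all siControl libraries, while those of siYAP and siTAZ overlapped with them. SMAD3 rose 1.25-fold in siYAP+TAZ (log2 fold change 0.32, SE 0.09, adjusted p = 0.021), but the call was lost without library 27, 20 or 25 (adjusted p = 0.116, 0.0704 and 0.0839). The ratio within the runs was 1.19, 1.26 and 1.32. SMAD2 had 1197, 1093 and 1150.0 in siControl, 928, 1026 and 1086 in siYAP, 978, 1166 and 1247 in siTAZ and 1062, 1107 and 1187 in siYAP+TAZ. It overlapped between siControl and siYAP+TAZ (log2 fold change -0.04, 95% interval -0.23 to 0.16), and in siYAP all 3 libraries were below siControl by a small margin (log2 fold change -0.18, SE 0.09, adjusted p = 0.479).

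SMAD7 (chr18:48919853-48950965, minus strand), the feedback inhibitor that targets TGFBR1, had normalised read counts of 379.7, 375 and 476 in Control, 447, 436 and 407 in siControl, 499.5, 494 and 442 in siYAP, 508, 559 and 554 in siTAZ and 605, 641 and 735 in siYAP+TAZ. The siTAZ and siYAP+TAZ libraries were above all siControl libraries, and every siYAP+TAZ library was above every siTAZ library. SMAD7 rose 1.54-fold in siYAP+TAZ (log2 fold change 0.62, SE 0.10, adjusted p = 3.76e-04), and this held with each library left out. The differences were smaller in the single knockdowns, with a log2 fold change of 0.33 in siTAZ (SE 0.10, adjusted p = 0.11) and 0.15 in siYAP (SE 0.10, adjusted p = 0.616). The ratio of siYAP+TAZ to siControl was 1.35, 1.47 and 1.81 within the runs.

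SMAD6 (chr15:66702236-66782849, plus strand), the inhibitor that acts mainly on BMP signals, was a low transcript with normalised read counts of 124, 83.2 and 62.2 in siControl, 111, 129 and 57.5 in siYAP, 154, 108 and 104 in siTAZ and 179.6, 159 and 133 in siYAP+TAZ. All siYAP+TAZ libraries were above all siControl libraries, with library 30 of the former close to library 17 of the latter. The log2 fold change in siYAP+TAZ was 0.79 (SE 0.30, 95% interval 0.15 to 1.43), and it did not pass (adjusted p = 0.0847). Without library 17 it was 1.11 (adjusted p = 0.0325), and the ratio within the runs was 1.45, 1.91 and 2.14. The promoter of SMAD6 is shown for the palindrome GTCTAGAC, made of a pair of SMAD boxes (GTCT), which starts 12 bases before the start site (RefSeq, GRCh38.p14, chr15:66701986-66702235, plus strand).
SMAD6: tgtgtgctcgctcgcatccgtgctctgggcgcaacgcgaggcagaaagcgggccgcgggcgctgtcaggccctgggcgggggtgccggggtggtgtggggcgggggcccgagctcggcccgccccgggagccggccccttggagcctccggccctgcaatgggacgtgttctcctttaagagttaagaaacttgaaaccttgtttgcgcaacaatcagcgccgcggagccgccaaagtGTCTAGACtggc
The palindrome reads the same on both strands and stood in 0.202% of all windows and 0.256% of all genes, and SMAD6 was the only one of the 10 genes whose windows held it, in 1 of the 25. The single box GTCT, which overlaps it, stood in 84% of all windows and in 20 of the 25, and by gene in 86.6% of all genes and 9 of the 10.

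TGFBI (chr5:136028988-136063818, plus strand), the matrix protein, was the member in which the single knockdowns parted. Normalised read counts were 1948, 1793 and 1853 in Control, 1585, 1572 and 2064 in siControl, 1527, 1859 and 1286 in siYAP, 2339, 4417 and 3136 in siTAZ and 2555, 2759 and 3486 in siYAP+TAZ. All siTAZ and siYAP+TAZ libraries were above all siControl libraries, and siYAP overlapped with siControl. TGFBI rose 1.69-fold in siYAP+TAZ (log2 fold change 0.75, SE 0.21, adjusted p = 0.0278), with ratios of 1.61, 1.76 and 1.69 within the runs, and the call was lost without library 17, 22 or 30 (adjusted p = 0.0926, 0.0979 and 0.0986).

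In siTAZ the log2 fold change of TGFBI was 0.92 (SE 0.21, 95% interval 0.46 to 1.39) with an adjusted p of 0.0502, at the edge of the threshold. It passed with DESeq2 (adjusted p = 2.74e-04) and without library 19 (0.00495), and it was 0.65 without library 24 (adjusted p = 0.178). Library 24 held the highest TGFBI and the lowest WWTR1 of the siTAZ group, and library 19 the lowest TGFBI and the highest WWTR1, an order over 3 libraries that was not tested. In siYAP the log2 fold change was -0.16 (SE 0.21, adjusted p = 0.857). Set directly against each other, siYAP was 2.11-fold below siTAZ (log2 fold change -1.08, SE 0.21, adjusted p = 0.0488), without overlap and lower in all 3 runs. SMAD7 was also without overlap between these groups, beside 17.6% of all genes. TGFBI was the only member that passed in this comparison, in which 0.642% of all genes passed and 0.0636% also passed the fold threshold, as TGFBI did. The call was lost without library 24, 29, 18 or 28 (adjusted p = 0.201, 0.129, 0.251 and 0.187), and with only the 6 libraries compared in the fit (adjusted p = 0.253). It was also lost with DESeq2 size factors (adjusted p = 0.0502), with library size only (0.0592) and in libraries 16 to 25 (0.214), and held in 3 of the 7 alternatives of the processing, DESeq2 (adjusted p = 3.35e-05) among them.

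**Figure D3:**
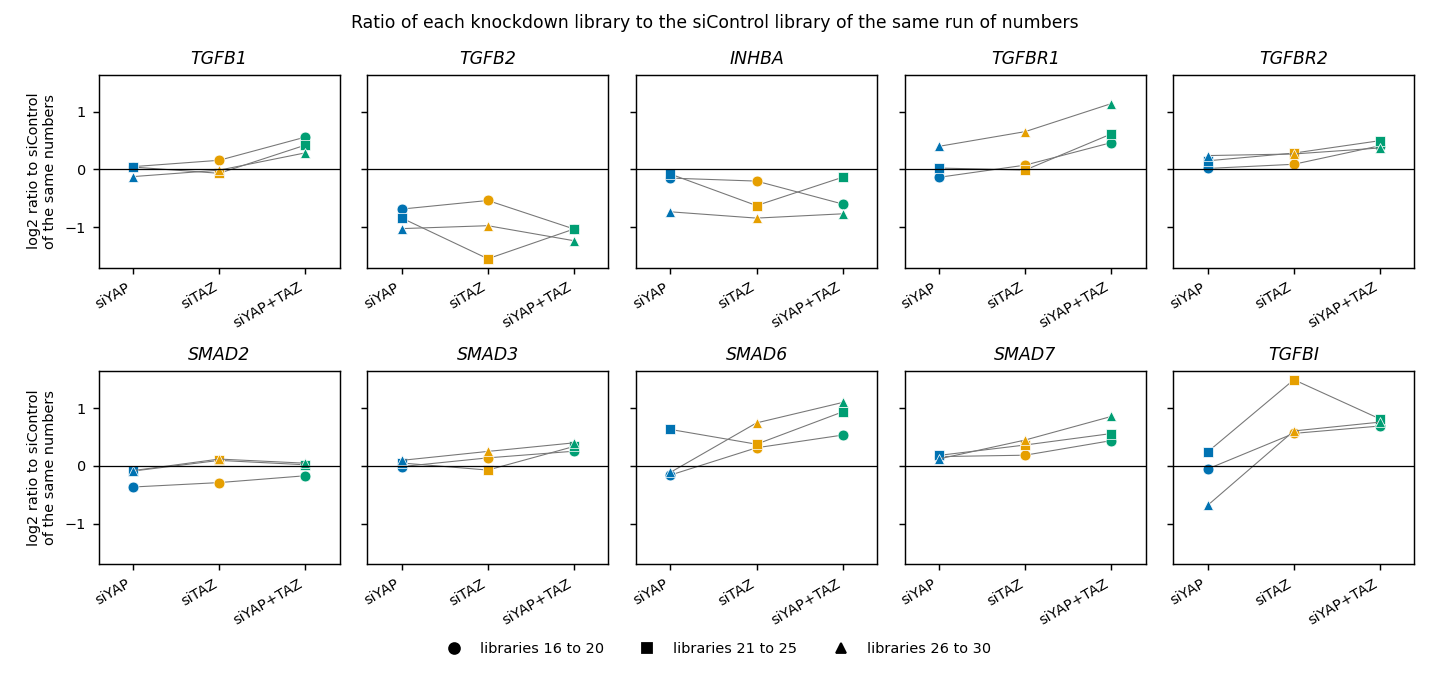
Log2 ratio (y axes) of each knockdown library to the siControl library of the same run of numbers, for the 10 genes, with lines joining the libraries of a run. TGFB2 and INHBA lie below 0 in all 9 knockdown libraries, TGFBR2 and SMAD7 above 0 in all 9, and TGFBI in siTAZ and siYAP+TAZ but not in 2 of the 3 siYAP libraries.

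None of the 10 genes passed in siYAP against siControl, where 0.933% of all genes passed, and none had an unadjusted p of at most 0.05, which 11.9% of all genes had. The groups were without overlap for 2 members, TGFBR2 higher and SMAD2 lower, beside 19.5% of all genes. In siTAZ no member passed, where 2.03% of all genes did, and 5 had an unadjusted p of at most 0.05 (TGFB2, TGFBR1, TGFBR2, TGFBI and SMAD7), as did 16% of all genes. DESeq2 passed 1 member there, TGFBI, and none in siYAP, beside 802 and 400 of 18858 genes. In siTAZ, 3 members were without overlap and higher (TGFBR2, TGFBI and SMAD7), beside 20.9% of all genes in either direction. The 3 knockdowns share the same siControl libraries, so their differences from it are not independent of each other.

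The untransfected Control group gives the background of the transfection. None of the 10 genes differed between siControl and Control by edgeR or DESeq2, 0 had an unadjusted p of at most 0.05 and 0 were without overlap, beside 0% of all genes past the adjustment, 2.11% (398 genes) at the unadjusted p and 5.83% without overlap. The log2 differences ran from -0.12 for SMAD6 to 0.16 for TGFBR1. Set against Control rather than siControl, 4 members rose in siYAP+TAZ, TGFBI having an adjusted p of 0.0506, and 3 rose in siTAZ, namely TGFBR1, TGFBR2 and SMAD7 (adjusted p = 0.0445, 0.0366 and 0.0435), beside 19.4% and 3.4% of all genes called in either direction.

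The co-knockdown was also set directly against each single knockdown. Against siYAP, 4 members were higher and none lower, where 5.13% of all genes passed, and 6 were without overlap, beside 24.7% of all genes. The members called were TGFBR1 (log2 fold change 0.65, SE 0.10, adjusted p = 8.99e-04), SMAD7 (0.47, SE 0.10, adjusted p = 0.0121), TGFBR2 (0.29, SE 0.07, adjusted p = 0.0251) and TGFBI (0.91, SE 0.21, adjusted p = 0.0301). Of these calls, that of TGFBR1 held whichever of the 6 libraries was left out. The call of SMAD7 was lost without library 28 or 30, that of TGFBR2 without 18, 23, 20 or 25, and that of TGFBI without 18, 28, 25 or 30. With only the 6 libraries compared in the fit TGFBR2 had an adjusted p of 0.0587, and in libraries 16 to 25, an alternative chosen after seeing the data, TGFBI had a log2 fold change of 0.65 (adjusted p = 0.309). Against siTAZ the receptor gene TGFBR1 alone was called (0.50, SE 0.10, adjusted p = 0.00721), where 5.44% of all genes passed, with 2 members, TGFBR1 and SMAD7, without overlap beside 23.4% of all genes. Its call held whichever library was left out, while 3 members passed without library 30. TGFBI had -0.17 there (95% interval -0.63 to 0.29) and TGFB2 -0.12 (-1.01 to 0.77).

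Whether the co-knockdown differed from the sum of the single effects was tested as the interaction of siYAP and siTAZ on the log2 scale. None of the 10 genes passed with edgeR or DESeq2, and 0.0106% of all genes did with edgeR. TGFBR1 was the 1 member with an unadjusted p of at most 0.05, which 5.85% of all genes had (interaction 0.42, SE 0.14, adjusted p = 0.677), its difference in the co-knockdown exceeding the sum of 0.08 and 0.23. TGFB2 had an interaction of 0.70 with a 95% interval of -0.56 to 1.95, and TGFBI one of -0.01 (-0.66 to 0.65). The YAP1 and WWTR1 transcripts were not depleted to the same depth in the single and the joint knockdowns, as given above, and the part of this in the interaction was not tested.

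Per kilobase of the canonical GENCODE transcript, TGFB1 was the highest of the 10 genes in all 5 groups. In siControl its level was 64.6 ± 6.69 CPM per kilobase (mean ± SD, n = 3). SMAD3 (41.2 ± 4.73), TGFB2 (37.7 ± 9.7), TGFBR2 (30.1 ± 1.17) and TGFBI (27.1 ± 4.37) followed on this scale, and neighbours among these 4 did not differ beyond their spread. TGFBR1 (7.28 ± 1.17) and SMAD7 (5.44 ± 0.266) were well below them. SMAD2 (1.4 ± 0.0635), INHBA (1.07 ± 0.38) and SMAD6 (0.993 ± 0.348) were lowest and did not differ from neighbour to neighbour, although the canonical transcript of SMAD2 is 34626 bases long in the annotation and its level per kilobase depends on that length. In siYAP+TAZ the level of TGFB2 was 17.9 ± 5.73, below that of TGFBR2 (40.5 ± 3.12). TGFB2 was below TGFBR2 beyond their spread in siYAP (21.4 ± 7.34 against 33.1 ± 1.63) and siTAZ (19.4 ± 9.03 against 34.9 ± 2.31) as well, above it in Control (40.6 ± 10.1 against 28.6 ± 1.05), and not apart from it in siControl. TGFBI was 51.4 ± 16.3 in siTAZ, next to TGFB1 (66 ± 10), from which it did not differ beyond the spread.

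The other genes of the pathway were taken from 5 lists of 69 measured genes in all, of which 14 rose and 7 fell in siYAP+TAZ, 21 of 69 in all, while 18.4% of all genes passed. Genes named below with values but outside the rule for named genes (LTBP4, ITGAV, ACVR1, BMPR2, TGIF2, SMAD4, SMURF2, KLF10 and TGFB1I1) were chosen after their values were seen. The list of ligands, latency and activation held 7 genes that rose and 1 that fell of 17 measured. All 4 genes of the latent TGF-beta binding protein family, matrix proteins of which LTBP2 does not itself bind latent TGF-beta, lay higher and 3 passed, LTBP4 being at 0.23 (adjusted p = 0.269). They were LTBP3 (log2 fold change 1.35, SE 0.23, adjusted p = 0.00116), LTBP1 (1.32, SE 0.31, adjusted p = 0.0117) and LTBP2 (0.70, SE 0.11, adjusted p = 3.07e-04). LTBP1 had normalised read counts of 1227, 1240.0 and 707 in siControl and 2734, 3113 and 2102 in siYAP+TAZ, without overlap. ITGB8 and ITGAV, which encode the subunits of an integrin that activates latent TGF-beta, rose too (ITGB8 1.04, SE 0.17, ITGAV 0.30, SE 0.08), as did BMP2 (0.87, SE 0.21) and INHA, which had only 2 to 14 reads per library. THBS1, whose product thrombospondin can release latent TGF-beta, fell in siYAP+TAZ (-0.56, SE 0.09, adjusted p = 3.21e-04) and in siYAP (-0.51, SE 0.09, adjusted p = 0.0107).

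Of 11 other receptors and co-receptors, the BMP and activin receptor genes ACVR1 (0.44) and BMPR2 (0.43) rose in siYAP+TAZ and none fell, near the share of all genes. That share, 18.4% called in either direction, also stands beside the counts of the 2 lists that follow. Of 11 SMADs and SMAD-bound factors, none rose and 1 fell, the corepressor gene TGIF2 (-0.37), and SMAD4, the partner of SMAD2 and SMAD3, had a log2 fold change of -1.42e-04 (SE 0.09). Of 11 inhibitors, PMEPA1 rose and 3 fell, namely NEDD4L and SMURF2, ubiquitin ligase genes that act on receptors and SMADs, and FSTL3, which encodes an activin-binding protein. PMEPA1, whose product sequesters SMAD2 and SMAD3, had normalised read counts of 2647, 2204 and 2154 in siControl, 2167, 2376 and 1918 in siYAP, 3084, 5498 and 3654 in siTAZ and 4249, 4487 and 4357 in siYAP+TAZ. It rose in siYAP+TAZ (0.90, SE 0.16, adjusted p = 0.00161) and in siTAZ (0.80, SE 0.16, adjusted p = 0.0213), and siYAP (-0.12) overlapped with siControl, the same layout as TGFBI, with library 24 again highest. NEDD4L was the 1 gene of the 69 that fell in all 3 knockdowns (-0.47 in siYAP, -0.65 in siTAZ and -0.78 in siYAP+TAZ).

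Of 19 genes known to be induced by TGF-beta, 4 rose in siYAP+TAZ, where 9.97% of all genes rose and 18.4% passed in either direction. BHLHE40, a transcriptional repressor gene (1.24, SE 0.14), the cell cycle inhibitor gene CDKN1A (0.97, SE 0.15), KLF10 and TGFB1I1 rose. CCN2, a matricellular protein gene that is also a widely used target of YAP, fell (-0.99, SE 0.17, adjusted p = 0.00113). Normalised read counts of CCN2 were 11460.0, 11174 and 9685 in siControl and 5979, 5709.8 and 4551 in siYAP+TAZ. In the single knockdowns BHLHE40 rose in siTAZ (0.56, adjusted p = 0.0463) and no gene of this list passed in siYAP. Over all 5 lists 0 rose and 3 fell in siYAP, and 2 rose and 1 fell in siTAZ, beside 0.933% and 2.03% of all genes called in those comparisons.

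**Figure D4:**
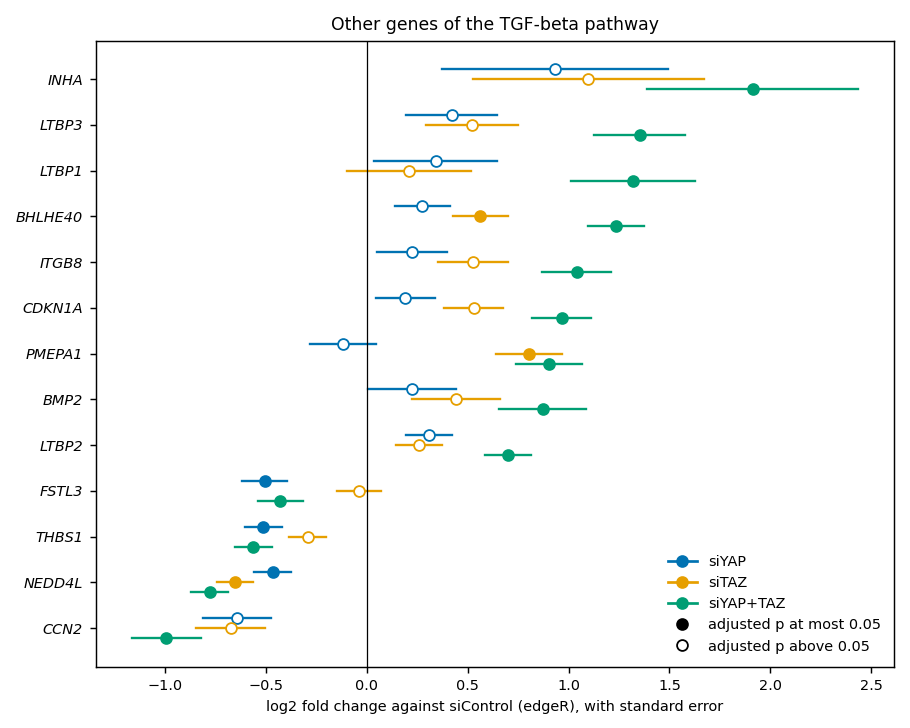
Log2 fold change against siControl (x axis, with standard error) of the other pathway genes the text names by its rule (rows), in siYAP, siTAZ and siYAP+TAZ. Filled points passed an adjusted p of 0.05. LTBP1, LTBP2 and LTBP3 lie to the right in siYAP+TAZ, CCN2 to the left, and PMEPA1 is filled in siTAZ and siYAP+TAZ.

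The genes whose levels most resembled those of the called members were sought over the 15 libraries among 11724 genes with a mean of at least 50 normalised read counts. Pearson's r of log2 levels is given as a description, since the libraries of the 5 groups share their treatment. For TGFBR1 these were BBX (0.971), PJA2 (0.961) and SH3PXD2A (0.957), for TGFBR2 CAPN2 (0.979), FAM102A (0.965) and C15orf39 (0.962), and for SMAD7 ZMIZ1 (0.969), PRSS2 (0.956) and CIC (0.956). For SMAD3 they were ARHGAP5 (0.955), NMNAT2 (0.941) and TBXAS1 (0.938), and for TGFBI RNF141 (0.916), DGCR2 (0.912) and AOPEP (0.908).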

How the data were processed

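Poly(A) RNA libraries of 15 MDA-MB-231 cultures were sequenced. According to the methods and the submitters' processing notes, reads were trimmed with cutadapt and aligned to GRCh38 with STAR (2.4.2a) within the UTAP pipeline, and the deposited counts are reads per GENCODE gene. Whether counting used the strand is not given in the sources used here. The authors also deposited DESeq2-normalised signal, rlog values on a log2 scale, and the log2 fold changes and p-values of their own comparisons, none of which was used.

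The counts of all 18858 genes were fitted as deposited in R (4.3.3) with edgeR (4.0.16, limma 3.58.1): TMM scaling, a single model of all 15 libraries with a term for each of the 5 groups, the robust quasi-likelihood test, and Benjamini-Hochberg adjustment over all genes. A gene was called at an adjusted p of at most 0.05. The minimum of 5 reads in 1 library removed no gene. Normalised read counts are counts per effective library size times the mean effective size. Confidence intervals are the 95% intervals of the fit. Exons and lengths were taken from GENCODE release 44, which matched 15574 of the 18858 genes by name, and promoters from RefSeq (GRCh38.p14).

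The study describes 3 independent experiments without saying which libraries make up each, so the groups were compared without a term for the experiment. An exact permutation test of 3 libraries against 3 cannot give a p below 0.1 and was not used. Alternatives were DESeq2 (1.42.0), other scaling, other filters on low counts, Control as the reference, fitting only the groups compared, a block for the run of library numbers, and omission of single libraries. The scripts were tested on simulated data.

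The 10 genes and the gene lists were chosen with earlier results of these data known. Besides them, the text names YAP1, WWTR1, antisense or overlapping transcripts, genes of the 5 lists that passed both the adjusted p and an absolute log2 fold change of 1 or, to make up 12 of them, had the largest change at a mean of at least 20 normalised read counts, and the 3 genes most like each called member. Exceptions are stated where they are named. One further gene of the lists is not reported here.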

Additional observations from a re-analysis of the deposited data

Results flagged for a closer look

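The effects of the single knockdowns on TGFBI differed by a direct test close to the threshold, in a call that held in 3 of 7 alternatives of the processing. TGFBI was lower in siYAP than in siTAZ, with a log2 fold change of -1.08 (SE 0.21, adjusted p = 0.0488, edgeR), and lower in all 3 runs of library numbers. No other of the 10 genes passed in this comparison, in which 0.642% of all genes passed. The call of TGFBI was lost without library 18, 24, 28 or 29 (adjusted p of 0.251, 0.201, 0.187 and 0.129, edgeR) and with only the 6 libraries compared in the fit (0.253), DESeq2 size factors (0.0502), library size only (0.0592) or libraries 16 to 25 (0.214).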

How the results depend on the processing

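No fold change of a member changed sign where it was called. In siYAP+TAZ against siControl (5 members called), DESeq2 called 8, and leaving out single libraries gave 4 to 5. Over all genes the 3464 calls there were 3656 with DESeq2 and 2502 to 2925 without single libraries. In siTAZ against siControl (0 called), 1 was called with DESeq2, with filterByExpr and with library size only, 3 with Control as the reference, and 0 to 1 without single libraries. In siYAP against siTAZ (1 called), 0 were called with DESeq2 size factors, with library size only, with only the groups compared and in libraries 16 to 25 (an alternative chosen after seeing the data), and 0 to 1 without single libraries. In siYAP+TAZ against siTAZ (1 called), libraries 16 to 25 gave 4 and leaving out single libraries 1 to 3. In siYAP+TAZ against siYAP (4 called), only the groups compared gave 3, libraries 16 to 25 gave 5 and leaving out single libraries 2 to 3. Over all genes, the 176 calls in siYAP were 400 with DESeq2, 276 against Control and 27 to 137 without single libraries, and the 383 in siTAZ were 802, 642 and 68 to 901, 147 with only the groups compared and 883 in libraries 16 to 25. The 121 calls between siYAP and siTAZ were 354 with DESeq2, 1 with only the groups compared, 78 with library size only, 56 in libraries 16 to 25 and 0 to 417 without single libraries. The 968 of siYAP+TAZ against siYAP were 1464 in libraries 16 to 25 and 399 to 678 without single libraries, the 1025 against siTAZ were 603 with only the groups compared and 465 to 949 without single libraries, and the 2 of the interaction were 21 with DESeq2, 29 in libraries 16 to 25, 0 with filterByExpr and library size only, and 0 to 5 without single libraries. The cause of these differences was not tested.

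Library numbers run in 3 sets of 5 with each group once, and the study names 3 independent experiments, but no source says that a set is an experiment. Deviations from the group means correlated over 0.1 in 26 of 30 pairs of libraries of a set (lowest -0.05, median 0.39) and in 16 of 60 pairs of different sets (median -0.32). Of 15 libraries, 10 correlated best with one of their own set. Libraries of a set thus tended to deviate together, with exceptions. As no source states the pairing, it was not used in the main fit. With the set as a replicate block, 9 members (TGFB1, TGFB2, INHBA and SMAD6 added) were called in siYAP+TAZ against siControl, 1 in siYAP, 5 in siTAZ, 7 against siYAP, 5 against siTAZ and 1 for the interaction, and over all genes 5389, 1151, 1942, 2758, 2795 and 122, with 1380 between siYAP and siTAZ. TGFB2 then fell in siYAP+TAZ (-1.10, adjusted p = 0.00175, edgeR), siYAP (-0.85, 0.0280) and siTAZ (-0.99, 0.0104), and INHBA in siYAP+TAZ (-0.46, 0.0230) and siTAZ (-0.48, 0.0413). Between siControl and Control (0 over all genes) it gave 1, and libraries 16 to 25 gave 6. INHBA and SMAD6 had the lowest read numbers, 40 to 233 and 48 to 179 in a library.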
